A study of Mus musculus with 250 samples.

Results

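Metallothioneins are small, cysteine-rich proteins that bind zinc and copper inside the cell, and Slc39a6 (ZIP6) is a membrane transporter that brings zinc into the cytosol. The 4 genes described here, Mt1, Mt2, Mt4 and Slc39a6, were taken by symbol from a table of 27003 genes measured in 250 single mouse epidermal cells. They were picked with earlier comparisons of these cells by region in view, so they count as selected on their measured levels and shares of cells, which are given as a description and carry no test. Mt1 and Mt2 are made in most tissues, and their transcription is raised by zinc, through the zinc-sensing factor MTF-1, and by glucocorticoids. Mt4 is the metallothionein of stratified squamous epithelia and is made mainly in differentiating cells. Slc39a6 belongs to the LIV-1 group of zinc importers, and in mammalian cells its protein is known to pair with that of Slc39a10.

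All cells came from tail epidermis of Lrig1CreER/Rosa-TdTomato mice. In this genotype an inducible Cre under the control of Lrig1, a gene of upper hair follicle stem cells, switches on a red fluorescent reporter in those cells and their progeny. Every cell was sorted as positive for Sca1, the product of Ly6a, and carries the time label 8 weeks with a further abbreviation, pw1, that the labels do not spell out. The regions were a distal region (32 cells in batch 1 and 49 in batch 2), the wound bed (30 and 55) and a control region described as non-memory (28 and 56). Each batch of each region had its own plate code, giving 6 plates. No animal is named in the labels. Each region therefore counts as 1 sample, the batches are given side by side, and no value has an error between animals.

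Libraries were made by Smart-Seq2, which reads whole transcripts and has no molecular identifiers, so reads are not independent molecules and intervals below cover counting error only. Reads per cell ran between 3857 and 3119120, with plate medians between 31686 and 93690.5. In the distal plate of batch 1, 4 cells with over 500000 reads held 72.8% of the reads. Predicted genes that resemble repeats took over 5% of the reads in 3 distal, 1 wound bed and 24 control cells, 18 of them among the 28 cells of the batch 1 control plate. Krt14, a keratin of basal epidermis, had reads in 214 cells and Krt10, a keratin of the suprabasal layers, in 175. Krt10 was at least as high as Krt14 per kilobase in 33.3% of distal, 47.1% of wound bed and 23.8% of control cells. Lrig1 had reads in 33 of the 250 cells.

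In GENCODE M21 (GRCm38) the metallothionein genes lie close together on the plus strand of chromosome 8. Mt4 (ENSMUSG00000031757) is at chr8:94137197-94139031, Mt2 (ENSMUSG00000031762) at chr8:94172664-94173568 and Mt1 (ENSMUSG00000031765) at chr8:94179082-94180327. Mt3, a metallothionein best known from brain, lies between Mt4 and Mt2 and had reads in 1 cell. Every window of 31 bases in the Mt1, Mt4 and Slc39a6 transcripts was absent from the transcripts of other genes, and 3 of 573 such windows in Mt2 also occurred in Pip5k1a.

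The sequences just upstream of the metallothionein genes are shown because MTF-1 acts on Mt1 and Mt2 through short metal response elements near their starts. They are RefSeq promoter sequences (GRCm38.p6, plus strand), and each ends at the base before the earlier of the RefSeq and GENCODE starts. The stretches are chr8:94178839-94179081 for Mt1, chr8:94172368-94172617 for Mt2 and chr8:94136954-94137196 for Mt4. Capitals mark matches, on either strand, to the element's core as searched here, TGCACNC or TGCGCNC.
Mt1: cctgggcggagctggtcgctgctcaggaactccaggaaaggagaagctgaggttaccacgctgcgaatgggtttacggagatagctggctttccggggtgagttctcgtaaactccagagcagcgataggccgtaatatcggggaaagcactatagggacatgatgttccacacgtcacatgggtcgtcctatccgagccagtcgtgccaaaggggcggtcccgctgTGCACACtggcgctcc
Mt2: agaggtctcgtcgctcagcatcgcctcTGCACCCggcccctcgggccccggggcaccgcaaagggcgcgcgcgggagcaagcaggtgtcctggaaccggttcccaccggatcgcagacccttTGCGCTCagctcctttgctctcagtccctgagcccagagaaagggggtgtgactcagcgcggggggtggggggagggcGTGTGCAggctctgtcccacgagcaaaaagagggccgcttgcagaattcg
Mt4: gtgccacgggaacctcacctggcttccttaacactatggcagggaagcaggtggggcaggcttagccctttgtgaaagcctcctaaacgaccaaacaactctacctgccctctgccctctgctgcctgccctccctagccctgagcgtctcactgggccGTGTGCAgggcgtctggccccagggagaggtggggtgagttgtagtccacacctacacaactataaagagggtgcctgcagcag
The Mt2 stretch holds 3 matches that do not overlap, and the Mt1 and Mt4 stretches hold 1 each. The Mt1 stretch ends at the outermost of several annotated Mt1 starts. The 250 bases before the most downstream one, which lies 159 bases further on, hold 5 matches, so the printed counts do not rank the genes. Among 32851 RefSeq promoter windows of 250 bases, 21.4% hold at least 1 match, 4.301% at least 2 and 0.770% at least 3. A match is a run of letters and was not measured as a bound site.

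Mt1 was the metallothionein detected in the most cells, and it was found least often in the control region. At least 1 read was seen in 90.6% and 81.6% of distal cells in batches 1 and 2, in 90% and 89.1% of wound bed cells and in 50% and 69.6% of control cells. Over both batches this was 85.2% of distal cells (exact Clopper-Pearson 95% interval 75.6 to 92.1%), 89.4% of wound bed cells (80.8 to 95.04%) and 63.1% of control cells (51.9 to 73.4%). The control share was the lowest in both batches. These intervals cover counting error over cells and do not compare regions. Because depth differed between plates, each cell was also thinned to 10000 reads, which left out 4 distal, 7 wound bed and 1 control cell with fewer. The shares were then 67.5% in the distal region, 82.1% in the wound bed and 54.2% in control. In batch 2 the distal and control shares came near each other, at 66.7% and 60%, against 68.75% and 42.9% in batch 1. Shares without the repeat-rich cells are not given here.

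The level of Mt1 varied widely from cell to cell in every region. Levels per cell are in CPM, the read count scaled to the size of that cell's library, with a lowest value of 0 in every plate. The median and highest cells stood at 166 and 1533 CPM in the distal region in batch 1 and at 258 and 1332 CPM in batch 2. In the wound bed they stood at 390 and 3870 CPM and at 408 and 8533 CPM, and in control at 26.6 and 2306 CPM and at 163 and 1850 CPM. Among cells with a read, the medians were 239 CPM in the distal region, 456 CPM in the wound bed and 269 CPM in control. The wound bed median was thus the highest by either count, and the ranges of single cells overlapped between all regions.

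For levels of a whole plate, reads were summed over its cells and scaled by TMM, a correction for a few very abundant genes. The summed Mt1 reads were 2990 in the distal region (exact Poisson 95% interval 2884 to 3099), 2261 in the wound bed (2169 to 2356) and 1679 in control (1600 to 1761). These sums and those below are not scaled, and the regions held 13560276, 4649562 and 8510727 reads of all genes in the same order. Their intervals treat reads as independent, which they are not, and leave out differences between cells. TMM-scaled levels of Mt1 were 287 and 232 CPM in the distal plates of batches 1 and 2, 525 and 396 CPM in the wound bed plates and 165 and 219 CPM in the control plates. Both wound bed plates were above the other plates of their batch. The log2 ratios of scaled CPM plus 1, taken within batch 1 and within batch 2, were 1.66 and 0.85 for wound bed over control, 0.79 and 0.08 for distal over control, and -0.87 and -0.77 for distal over wound bed. A gene was said to meet the size rule when both batch ratios were at least 1 in size with the same sign, and Mt1 met it in no comparison. Without the repeat-rich cells the ratios of Mt1 for wound bed over control were 0.82 and 0.95. It was considered at all when at least 10% of the cells of a compared region had a read in each batch.

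Mt2, which shares its inducers with Mt1, was higher in the wound bed than in control. Detection was 84.4% and 67.3% in distal cells of batches 1 and 2, 83.3% and 90.9% in wound bed cells and 35.7% and 51.8% in control cells. Over both batches this was 74.1% in the distal region (63.1 to 83.2%), 88.2% in the wound bed (79.4 to 94.2%) and 46.4% in control (35.5 to 57.7%). Here too the control share was the lowest in both batches. At 10000 reads per cell the shares were 58.4% in the distal region, 79.5% in the wound bed and 34.9% in control. Per cell, the median and highest Mt2 levels were 149 and 1010.49 CPM in the distal region in batch 1 and 70.7 and 918 CPM in batch 2. They were 280 and 2677 CPM and 579 and 21223 CPM in the wound bed, and 0 and 1096 CPM and 25.1 and 2798 CPM in control. The median control cell of batch 1 had no Mt2 read. The highest cell came from a shallow wound bed library with 9141 reads, of which 194 were Mt2, and it was the highest for Mt1 as well, with 78 reads. A level of at least 1000 CPM was reached by 1 distal, 20 wound bed and 7 control cells.

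Summed over cells, Mt2 had 3753 reads in the distal region (3634 to 3875), 3168 in the wound bed (3059 to 3280) and 1340 in control (1269 to 1414). Plate levels of Mt2 were 424 and 155 TMM-scaled CPM in the plates of the distal region, 645 and 604 in those of the wound bed and 118 and 185 in control. The wound bed plates were the highest of both batches, and the distal plates stood above control in batch 1 only. Log2 ratios for wound bed over control were 2.44 and 1.70, which met the size rule, as 7.83% of the 5776 genes considered did in the higher direction and 16.1% in either. Without the repeat-rich cells, most of them in the batch 1 control plate, they were 1.63 and 1.81. For distal over control the ratios with all cells were 1.84 and -0.25, with opposite signs. For distal over wound bed they were -0.61 and -1.95, lower in both batches but below the rule in batch 1. In batch 1, 1 distal cell with 3119120 reads held 46.6% of the plate's Mt2 reads, and without cells of over 500000 reads the mean of the batch ratios for distal over wound bed was -1.66, against -1.28 with them.

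Mt4, like Mt2, was higher in the wound bed than in control in both batches. It was detected in 53.1% and 40.8% of distal cells in batches 1 and 2, in 83.3% and 72.7% of wound bed cells and in 32.1% and 21.4% of control cells. Over both batches this was 45.7% in the distal region (34.6 to 57.1%), 76.5% in the wound bed (66.03 to 85%) and 25% in control (16.2 to 35.6%). In both batches the wound bed share was the highest and the control share the lowest. At equal depth the shares were 41.6% in the distal region, 71.8% in the wound bed and 16.9% in control.

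Mt4 levels ranged over all sizes among the 123 cells with a read, of which 62 reached 1000 CPM. The median cell stood at 9.47 and 0 CPM in the distal plates of batches 1 and 2, at 492 and 278 CPM in the wound bed plates and at 0 in both control plates. The highest cells reached 5354 and 7199 CPM in the distal region, 14770.3 and 9851 CPM in the wound bed and 7560.09 and 14003 CPM in control, so single cells of every region could carry much Mt4. A level of at least 1000 CPM was seen in 22 of 81 distal cells (27.2%), 34 of 85 cells of the wound bed (40%) and 6 of 84 control cells (7.14%). Among cells with a read, the medians were 1193 CPM in the distal region, 1425 CPM in the wound bed and 266 CPM in control.

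Summed Mt4 reads were 7448 in the distal region (7280 to 7619), 7157 in the wound bed (6992 to 7325) and 2162 in control (2072 to 2255). Plate levels were 704 and 599 TMM-scaled CPM in the distal region, 2269 and 922 in those of the wound bed and 186 and 301 in control, in the same order in both batches. For wound bed over control the log2 ratios were 3.60 and 1.61, which met the size rule. For distal over control they were 1.92 and 0.99, just short of it in batch 2. With the cell of highest Mt4 CPM in each plate left out, the ratios for distal over control became 3.703 and 1.62, which met the rule. In the control plates that cell also held the most Mt4 reads, 73.02% of the plate's in batch 1 and 39.8% in batch 2. In the batch 1 distal plate it did not, and a cell with 55.1% of the Mt4 reads was kept. For distal over wound bed the ratios with all cells were -1.69 and -0.62.

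**Figure D1:**
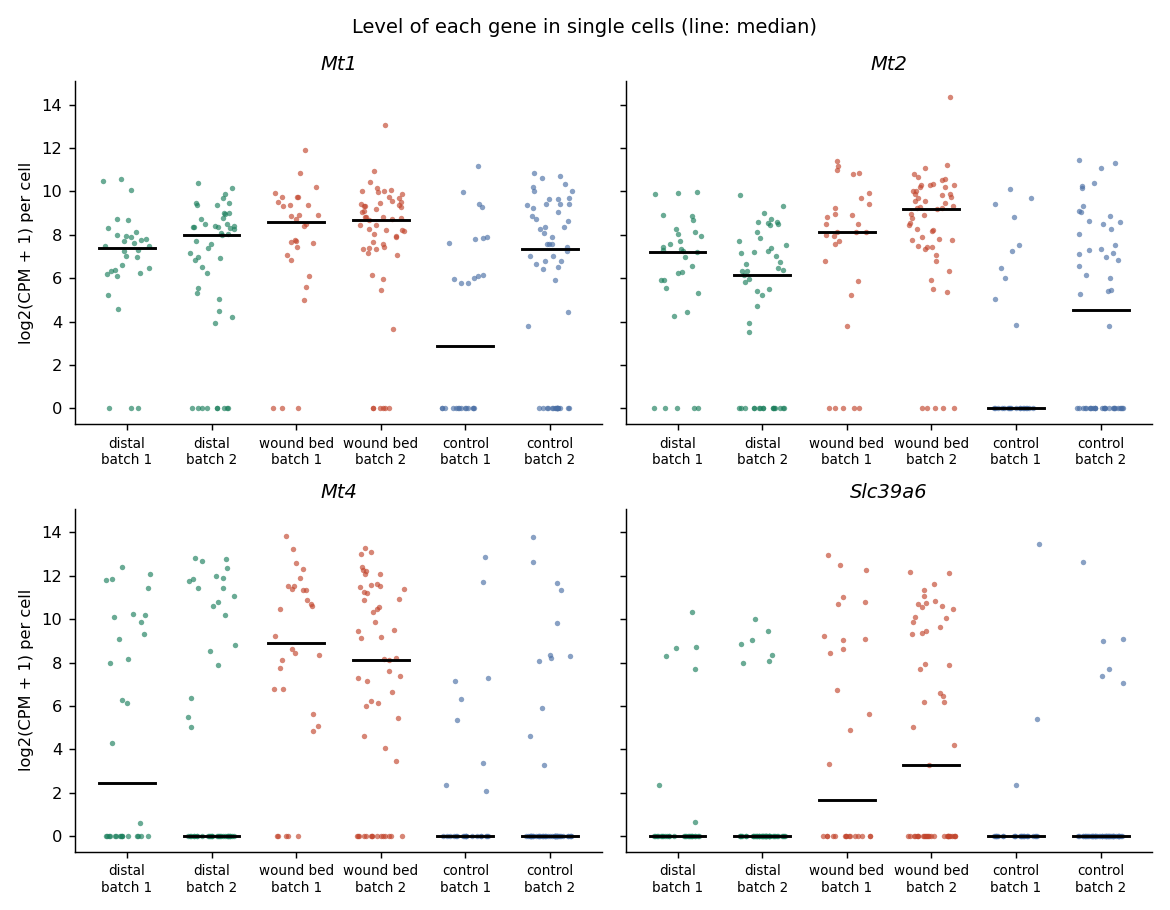
Level of each gene in every cell, as log2(CPM + 1), for the distal, wound bed and control plates of both batches; each point is a cell and the bar is the plate's median. The medians of Mt1, Mt2 and Mt4 are highest in the wound bed in both batches, and most distal and control cells lie at 0 for Slc39a6.

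Slc39a6, the zinc importer, was detected in more cells of the wound bed than of either other region. The gene (ENSMUSG00000024270) lies on the minus strand at chr18:24579881-24603817 in GENCODE M21 (GRCm38). Reads were seen in 21.9% and 14.3% of distal cells in batches 1 and 2, in 50% and 50.9% of wound bed cells, and in 10.7% of control cells in each batch. Over both batches this was 14 of 81 distal cells (17.3%, interval 9.78 to 27.3%), 43 of 85 wound bed cells (50.6%, 39.5 to 61.6%) and 9 of 84 control cells (10.7%, 5.02 to 19.4%). The same order of regions was seen in both batches. At 10000 reads per cell the shares were 15.6% in the distal region, 42.3% in the wound bed and 9.64% in control.

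The median cell had no Slc39a6 read in either distal or control plate and stood at 4.50 and 8.76 CPM in the wound bed plates of batches 1 and 2. The highest cells reached 1272 and 1045 CPM in the distal region, 8079 and 4672 CPM in the wound bed and 11289 and 6323 CPM in control. A level of at least 1000 CPM was seen in 2 distal, 19 wound bed and 2 control cells. High single cells were therefore present in all regions and frequent only in the wound bed by this count.

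The plate sums of Slc39a6 rested on very few cells in control. The control plate of batch 1 had 4294 reads, of which 4291 came from 1 cell, and that of batch 2 had 427, of which 301 came from 1 cell. Both of these cells had more Krt10 than Krt14. Plate levels were 62.8 and 34.5 TMM-scaled CPM in the distal region, 758 and 741 in those of the wound bed and 1217 and 85.4 in control. The wound bed plates were close to each other, and the control plates were far apart. Over both batches the reads summed to 597 in the distal region (550.07 to 647), 3826 in the wound bed (3706 to 3949) and 4721 in control (4587 to 4858).

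For distal over wound bed the log2 ratios of Slc39a6 were -3.57 and -4.39, which met the size rule, as 5.28% of the 6285 genes considered did in the lower direction and 14.9% in either. This mean ratio corresponds to a level 15.8-fold lower in the distal region. For distal over control they were -4.26 and -1.28, which also met it, as 6.09% of 6356 genes did in the lower direction and 14.2% in either. Without the top cell of each plate the ratios for distal over control were 3.85 and 0.14, so their direction rested on those cells. For wound bed over control they were -0.68 and 3.10 with all cells and 8.41 and 4.69 without the top cell of each plate.

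**Figure D2:**
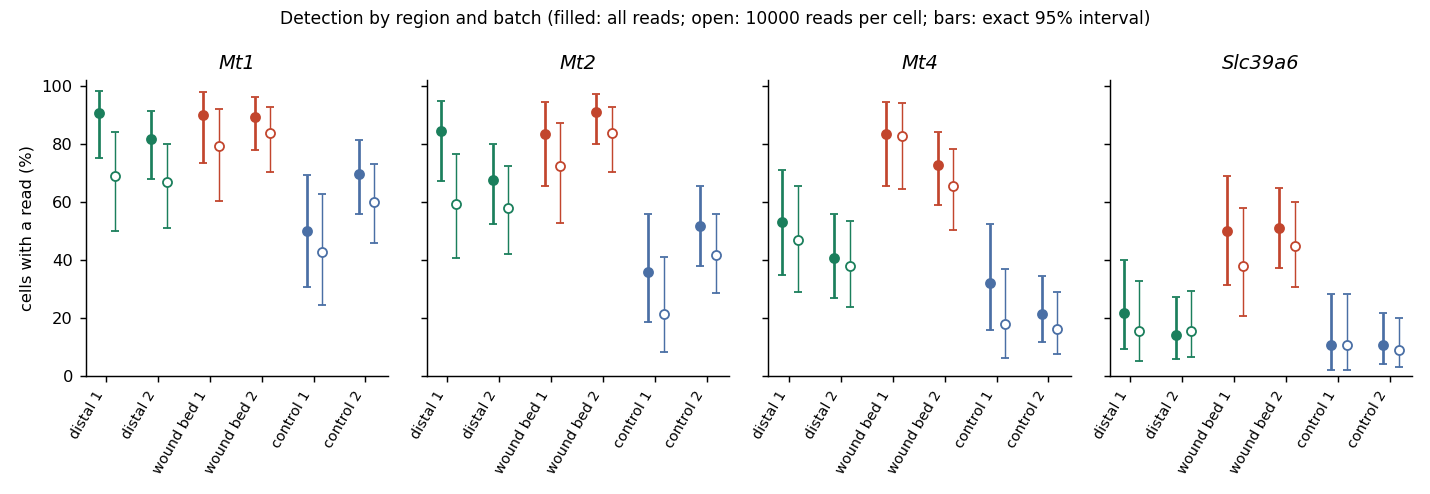
Percent of cells with at least 1 read of each gene in the distal, wound bed and control plates of batches 1 and 2, with all reads (filled points) and after thinning each cell to 10000 reads (open points); bars are exact 95% binomial intervals. For Mt4 and Slc39a6 the wound bed point is highest in both batches at both depths, while for Mt1 and Mt2 in batch 1 the distal share with all reads (90.6% and 84.4%) is about that of the wound bed (90% and 83.3%).

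**Figure D3:**
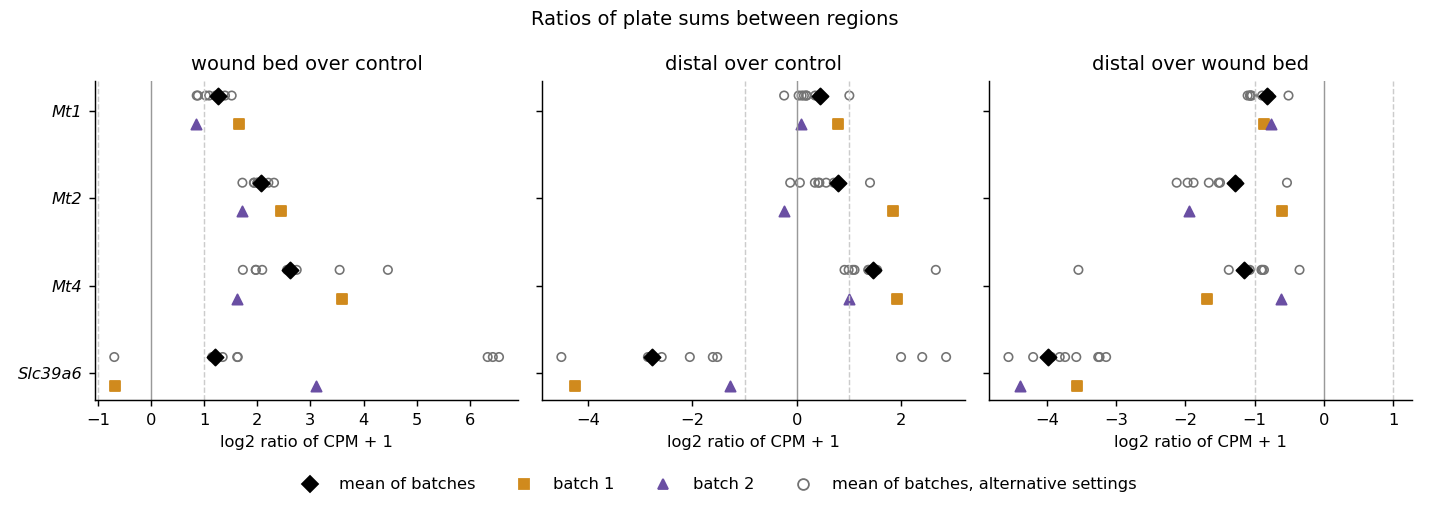
Log2 ratios of TMM-scaled CPM plus 1 for each gene in the 3 comparisons, with squares for batch 1, triangles for batch 2, diamonds for their mean, open circles for the mean under each alternative setting and dashed lines at the size rule of 1 in both directions. Mt2 and Mt4 lie past the line in both batches for wound bed over control, and the Slc39a6 squares and triangles for that comparison lie on opposite sides of 0.

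Levels of different genes can be set side by side only per transcript length. Per kilobase of the first GENCODE transcript (398 bases for Mt4, 511 for Mt2, 549 for Mt1 and 3882 for Slc39a6), Mt4 was the most abundant member in every plate. In the batch 1 control plate this rested on 1 cell, without whose reads Mt4 stood at 126 scaled CPM per kilobase, below Mt1 and Mt2. Its plate levels were 1769.72 and 1506 scaled CPM per kilobase in the distal region, 5701 and 2317 in those of the wound bed and 467 and 757 in control. Mt2 followed with 829 and 304 in the distal region, 1262 and 1183 in those of the wound bed and 230.3 and 362 in control. Mt1 had 523 and 422 in the distal region, 956 and 722 in those of the wound bed and 301 and 399 in control. Mt1 thus stood above Mt2 in both control plates and in the distal plate of batch 2 and below it elsewhere. With the longest Mt1 transcript, of 1085 bases, Mt1 was below Mt2 in every plate. Slc39a6 was lowest in all but the batch 1 control plate, with 16.2 and 8.89 in the distal region, 195 and 191 in those of the wound bed and 314 and 22.003 in control.

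Cells of the wound bed most often had reads of all 3 metallothioneins, each of which was also detected most often there over both batches. The joint share expected from the single-gene shares was not worked out, so the order of regions below does not measure co-expression. All of Mt1, Mt2 and Mt4 had reads in 29 of 81 distal cells (35.8%), 57 of 85 cells of the wound bed (67.1%) and 11 of 84 control cells (13.1%). None of the 3 had a read in 6 distal cells (7.41%), 1 wound bed cell (1.18%) and 21 control cells (25%). All 4 genes, Slc39a6 included, were seen in 9 distal, 30 wound bed and 4 control cells. Over the 250 cells, Mt1 and Mt2 were found together in 164 cells, Mt1 without Mt2 in 34, Mt2 without Mt1 in 10 and neither in 42.

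Mt1 and Mt2 also varied together in level, while Mt4 was less correlated with either over the 250 cells. Correlations were taken over log2(CPM + 1) in the 250 cells after each plate's mean was subtracted. They are descriptions, since cells of a plate share library preparation and their depths differ. Pearson's r between Mt1 and Mt2 was 0.58, ran from 0.40 to 0.74 within single plates, and was 0.48 in the 238 cells thinned to 10000 reads. Mt4 had r = 0.28 with Mt1 and 0.13 with Mt2. Within single plates these ran from -0.05 to 0.51 and from -0.31 to 0.51. Both were highest in the batch 1 wound bed plate, where r of Mt4 with Krt10 was 0.49. Slc39a6 had r = 0.04 with Mt1, 0.09 with Mt2 and 0.19 with Mt4. The last was between 0.09 and 0.40 within single plates and 0.21 after thinning, a weak correlation in sparse counts.

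**Figure D4:**
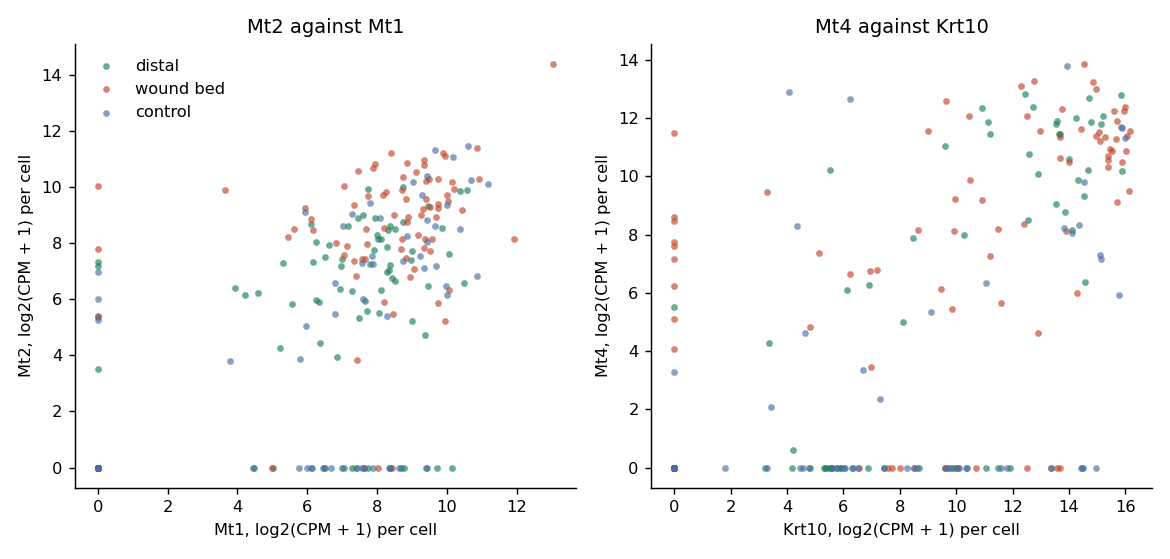
Log2(CPM + 1) of Mt2 against Mt1 and of Mt4 against Krt10, each point a cell coloured by distal, wound bed or control region. Cells spread along a rising band for Mt1 and Mt2 (within-plate r = 0.58), and Mt4 rises with Krt10 (r = 0.62), although 4 of the 62 cells with at least 1000 CPM of Mt4 have 5 or fewer Krt10 reads.

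The genes most like each member by this correlation, 5 for each metallothionein, were drawn from 2064 genes with reads in at least 25% of cells. For Mt1 they were Mt2 (0.58), Fth1 (0.42), the ferritin heavy chain that stores iron, Col17a1 (0.34) and Dst (0.34), which are parts of the hemidesmosomes that anchor basal cells, and S100a10 (0.31), a partner of annexin A2. For Mt2 they were Mt1 (0.58), Col17a1 (0.50), Fth1 (0.49), Slc6a6 (0.41), a taurine transporter, and Krt5 (0.38), the basal keratin that pairs with Krt14. Fth1 and Col17a1 stand in both lists. For Mt4 they were Krt2 (0.62) and Krt10 (0.62), keratins of suprabasal cells, Calm5 (0.61), a calmodulin-like gene, Stfa1 (0.60), a stefin that inhibits cysteine proteases, and Fabp5 (0.57), the epidermal fatty acid-binding protein. Mt4 was negatively correlated with the basal keratins Krt14 (-0.52) and Krt5 (-0.44). The values for Slc39a6 were low, at most 0.26, for Cstdc5 and for the transferrin receptor gene Tfrc, followed by Pnrc1 and Maf at 0.23 each. Of the 5 genes per metallothionein, 2 for Mt1, 3 for Mt2 and 5 for Mt4 were also among the first 5 after thinning.

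Because Mt4 went with suprabasal keratins, and cells with at least as much Krt10 as Krt14 were more frequent in the wound bed, the members were also read within each class of cells. The cut between classes is a point on a range, with 15 of the 250 cells within 2-fold of it. The class with at least as much Krt10, called Krt10-high below, also takes in distal and control cells with no read of either keratin. Among cells with more Krt14, Mt4 was detected in 24.1% of 54 distal cells (13.5 to 37.6%), 62.2% of 45 wound bed cells (46.5 to 76.2%) and 12.5% of 64 control cells (5.55 to 23.2%). Among cells with at least as much Krt10, it was detected in 88.9% of 27 distal cells (70.8 to 97.6%), 92.5% of 40 wound bed cells (79.6 to 98.4%) and 65% of 20 control cells (40.8 to 84.6%). Mt4 was thus near its ceiling in Krt10-high cells of the distal region and wound bed, and the wound bed stood furthest from the other regions among Krt14-high cells. For wound bed over control the log2 ratios of Mt4 were 7.40 and 1.52 in Krt14-high cells and 2.11 and 1.35 in Krt10-high cells. These ratios rest on few control reads or cells. Krt14-high control cells held 6 Mt4 reads in batch 1 and 358 in batch 2, of which 341 came from 1 cell. The Krt10-high class of the batch 1 control plate held 5 cells, and 479 of that plate's Mt4 reads came from 1 of them with 1 Krt10 read and no Krt14 read. Without a Krt10 read at all, 1 of 22 distal cells, 9 of 17 in the wound bed and 1 of 36 control cells had Mt4 reads.

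Mt1 and Mt2 differed less between the keratin classes than Mt4 did. Mt1 was detected in 87.0% of distal, 93.3% of wound bed and 65.6% of control cells of the Krt14-high class, and in 81.5%, 85% and 55% of the same regions in the Krt10-high class. Mt2 was detected in 81.5% of distal, 93.3% of wound bed and 50% of control cells of the Krt14-high class, and in 59.3%, 82.5% and 35% in the Krt10-high class. Over both batches the wound bed ranked first and control last in both classes for both genes. In batch 1 Krt14-high cells the distal shares were above those of the wound bed, at 95% against 93.3% for Mt1 and 95% against 80% for Mt2. Slc39a6 was detected in 16.7% of distal, 48.9% of wound bed and 9.38% of control Krt14-high cells. In Krt10-high cells these shares were 18.5%, 52.5% and 15%, and the wound bed share was highest in both classes.

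**Figure D5:**
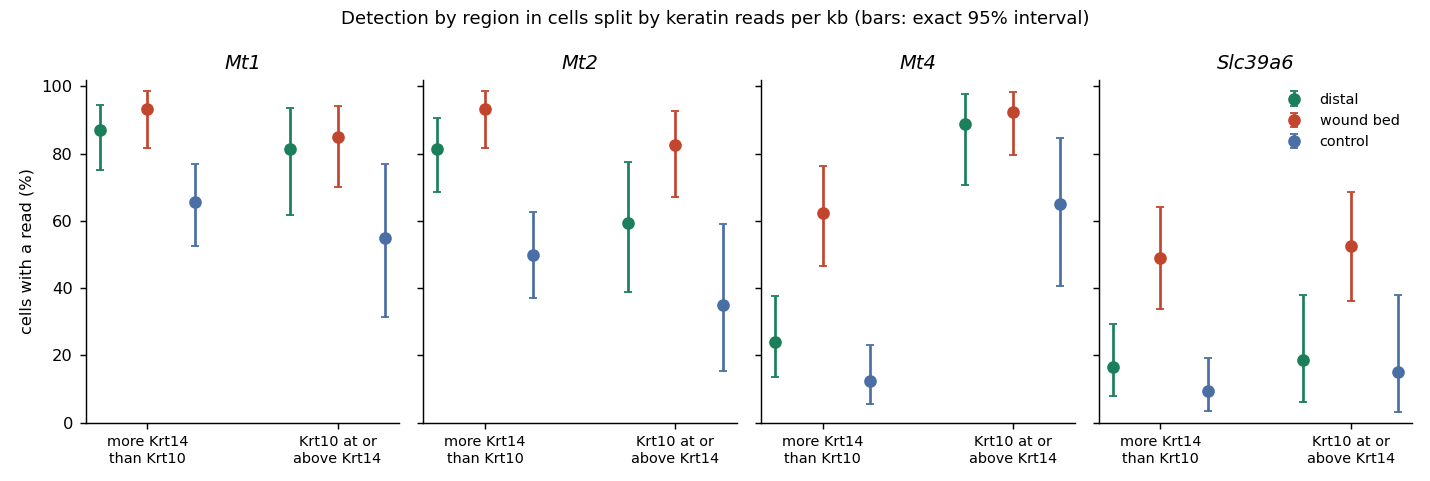
Percent of cells with at least 1 read of each gene in the distal, wound bed and control regions, among cells with more Krt14 than Krt10 and among cells with at least as much Krt10; bars are exact 95% binomial intervals. Mt4 differs between the keratin classes in every region, with 62.2% of Krt14-high and 92.5% of Krt10-high wound bed cells. Slc39a6 stands at 48.9% and 52.5% in the same classes of the wound bed.

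Marker lists were summed per plate to describe the mix of cells, and a sum is led by its most abundant genes. The suprabasal list summed to 13741 and 11555 CPM in the distal plates, 32311 and 28756 CPM in the wound bed plates and 11945 and 16339 CPM in the control plates. The basal list stood at 2879 and 7134 CPM in the distal plates, 3110.02 and 6256 CPM in the wound bed plates and 3631 and 6842 CPM in the control plates. The upper hair follicle list stood at 3022 and 8405 CPM in the distal plates, 2414 and 14618 CPM in the wound bed plates and 13045 and 35336 CPM in the control plates. In the suprabasal list Krt10 and Krtdap made up most of the wound bed sums, and of 9 genes considered for wound bed over control 1 met the rule as higher, Dsg1a (1.36 and 1.54), and 1 as lower, Calml3 (-2.82 and -1.04), both named after their values were seen. The suprabasal sum was highest in the wound bed in both batches, as Mt4 was, and the part of this in the plate level of Mt4 was not tested beyond the ratios within keratin classes above. The melanocyte list summed to 204 CPM in the distal plate of batch 1 and to at most 1.74 CPM elsewhere. The sum in that distal plate was almost all Mitf, which had reads in 6.25% of its cells. Leukocyte, fibroblast and endothelial lists summed to at most 71.9 CPM in any plate. There was no read of Tyr, Cd3e, Trdc, Cd207, Col1a2, Pdgfra or Cdh5 in any plate, and any read of these 4 lists was limited to 6 or fewer cells of a region per list.

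Other genes of zinc traffic were sparse, and few met the size rule. Of 13 zinc importers of the Slc39 family in the table, 5 were considered for wound bed over control and none met the rule. For distal over control 1 of 4 considered did, which was Slc39a6, and for distal over wound bed 2 of 4 did, Slc39a6 and its partner Slc39a10 (-3.75 and -2.53), which was named after its values were seen. Over all genes considered for distal over wound bed, 5.28% were lower by the rule, and Slc39a6 was itself selected on these levels. Slc39a10 was detected in 48 cells, at 11.2 and 49.8 scaled CPM in the distal plates, 164 and 291 in the wound bed plates and 4.25 and 195 in the control plates. Unlike the Slc39a6 shares, those of Slc39a10 were close, between 16.3% and 23.2% of cells in every plate. The other importers considered there were higher in the distal region in both batches, Slc39a1 by log2 ratios of 2.60 and 0.46 and Slc39a9 by 0.16 and 0.48. The median ratios of the importers considered were -1.71 and -1.03, midway between these opposite pairs, against 0.25 and -0.02 over all genes considered.

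Of 7 zinc exporters of the Slc30 family, 4, 6 and 5 were considered for wound bed over control, distal over control and distal over wound bed, and 0, 2 and 1 met the rule, all lower in the distal region, as 6.09% of all genes considered did against control and 5.28% against the wound bed. These were Slc30a1 and Slc30a7 against control and Slc30a6 against the wound bed, named after their values were seen and each detected in at most 30 cells. Mtf1, which encodes MTF-1, had reads in 17 cells and Slc30a1, another of its target genes, in 24, too few to set beside the metallothioneins.

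Genes of neighbouring responses met the size rule in few cases. Of 8 genes of metal and electrophile response, 1, 2 and 2 were considered in the same comparisons and 1 met the rule, Gclc for distal over wound bed (3.06 and 1.33), the catalytic subunit of the first step of glutathione synthesis. Of 8 glucocorticoid response genes, 5 were considered in each and 1 met it, Tsc22d3 for distal over control (1.45 and 1.28). Both were named after their values were seen and were sparse, with reads of Gclc in 27 cells and of Tsc22d3 in 48. In batch 2 Gclc was detected in 12.2% of distal and 12.7% of wound bed cells. Of 8 copper-handling genes, 6, 7 and 7 were considered and 1 met the rule, Atox1, a copper chaperone, for distal over control (-1.50 and -1.09). Atox1 was detected in 213 cells and stood at 71.8 and 117 scaled CPM in the distal plates, 129 and 125 in the wound bed plates and 205 and 251 in the control plates. The distal plates were lowest in both batches by level but not by share of cells. Shares in distal, wound bed and control cells were 93.75%, 86.7% and 75% in batch 1 and 85.7%, 81.8% and 87.5% in batch 2. For distal over control, 8.07% of the 6356 genes considered met the rule in the higher direction, and for distal over wound bed 9.59% of 6285 did. For wound bed over control, 8.24% of 5776 genes did in the lower direction.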

How the data were processed

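Single-cell libraries were made by Smart-Seq2 from sorted epidermal cells, per the labels' protocols. The authors deposited 1 table of whole-number read counts per gene symbol and cell. Salmon 0.13.1, R 4.0.3, Seurat and the build mm10 (GRCm38) are listed, with no role or order, per the submitters' processing notes. How estimates became whole counts, and any filter on cells, is not given in the sources used here. Rounding and sharing of reads among transcripts could change the lowest values.

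Counts were summed per plate and TMM-scaled in R 4.3.3 with edgeR 4.0.16. Log2 ratios of scaled CPM plus 1 were taken within each batch. A gene was considered when, in each batch, a read was seen in 10% or more of a compared region's cells, and met the size rule with both ratios at least 1 in size and of 1 sign. No test between regions was run, because the labels name no animal and each region is 1 sample. The computation was tested on simulated counts. Shares of cells have exact Clopper-Pearson and summed reads exact Poisson 95% intervals (scipy 1.17.1). Cells were thinned to 10000 reads without replacement. No doublets were called and no free RNA was subtracted.

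The members and gene lists were chosen with earlier results of these data known. Named genes were the 4 members, the 5 genes most correlated with each (predicted, ribosomal, mitochondrial and pseudogenes left out), and list members that met the size rule and were seen in 25% or more of a compared region's cells in each batch. One gene that this rule names for Slc39a6 is not reported here. The 12 repeat-like genes and the keratin classes were chosen after the data were seen. Of the listed genes, 10 have no row and were not analysed here. Gene positions and lengths came from GENCODE M21, in which 26417 symbols matched. Alternatives for the member ratios were total counts, equal weight per cell, a pseudocount of 10 CPM, thinning, and leaving out mitochondrial transcripts, repeat-rich cells, cells over 500000 reads or the top cell of each plate. The top cell left out was the one with the highest CPM of the gene in question. Counts of genes meeting the rule were also taken with no filter on low genes.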

Additional observations from a re-analysis of the deposited data

How the results depend on the processing

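The settings below were other scalings, left-out cells, left-out mitochondrial transcripts and keratin classes, of which the classes were chosen after seeing the data. Values are the mean log2 ratio of the batches. Under all 11 settings, main included, the size rule was met by Mt2 (1.72 to 2.31) and Mt4 (1.73 to 4.46) for wound bed over control and by Slc39a6 for distal over wound bed (-4.56 to -3.15). Mt1 was positive in both batches for wound bed over control in all 11 (0.86 to 1.52), and met the rule in Krt10-high cells (1.52).

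For Slc39a6, wound bed over control met the rule with equal weight per cell (1.63), thinned cells (1.62), without repeat-rich cells (6.34), without the top cell of each plate (6.55) and in Krt14-high cells (6.44). The batch 1 ratios in the last settings were 9.63, 8.41 and 7.54 in that order. They rest on a control plate left with almost no Slc39a6 reads, 3 in its Krt14-high cells, so their size is not firm. In Krt10-high cells the mean was -0.69, with opposite signs in the batches (-2.40 and 1.01). The Slc39a6 value for distal over control missed the rule with equal weight (-1.61) and thinned cells (-1.52). It was positive in both batches without top cells (mean 1.995) and in Krt14-high cells (2.86). Without repeat-rich cells its mean was 2.40, but the batches had opposite signs, at 6.05 and -1.25. The single control cell that held 4291 reads enters the values with all cells and those in Krt10-high cells.

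For distal over control, Mt4 met the rule with equal weight (1.07), thinned cells (1.10), without top cells (2.66) and in Krt10-high cells (1.37), and Mt1 stood at -0.24 thinned and 1.01 in Krt10-high cells. For distal over wound bed, Mt1 stood at -1.04 by total counts, -1.06 with equal weight, -1.07 without deep cells, -1.10 thinned, -1.07 without top cells, -0.89 in Krt14-high and -0.51 in Krt10-high cells, meeting the rule with equal weight and thinned. Mt2 met it by total counts (-1.50), with equal weight (-2.13), without deep cells (-1.66), thinned (-1.88) and in Krt14-high cells (-1.97). Mt4 met it in Krt14-high cells (-3.55) and stood at -0.35 in Krt10-high cells. Beyond the cells each setting leaves in, the cause was not tested.

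Without the filter on low genes, 1992, 1905 and 1987 genes met the rule for wound bed over control, distal over control and distal over wound bed, against 928, 900 and 935 with it, since more sparse genes entered. For distal over wound bed the split of genes higher and lower was 603 and 332 with TMM and 479 and 484 by total counts. By total counts the median ratio of all genes considered was 0.40 in batch 1 for wound bed over control (0.03 with TMM) and -0.25 for distal over wound bed (0.25 with TMM). Without repeat-rich cells it was 0.61 for wound bed over control and 0.98 for distal over control (0.23 with all cells) in batch 1, so ratios there stand against a shifted median. No paired analysis was possible because the labels give cells no replicate numbers, cells were numbered only in accession order, and no test was run. Depth limits absence: a cell without a read may hold unsampled transcripts, and thinning to 10000 reads lowered every region's share of each gene.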

Other observations

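Outside the comparisons, Mt1 and Mt2 ran against genes of the upper follicle duct across cells. With Krt79, a keratin of that duct, within-plate r was -0.50 for Mt1 and -0.48 for Mt2 over the 250 cells, and -0.48 and -0.38 over the 238 thinned cells. Within single plates r with Mt1 ran from -0.88 to 0.02. Krt79 was named after its values were seen, and cells of a plate share their library preparation. Summed upper hair follicle markers were lower in both wound bed plates than in the control plates of their batch, while Mt1 and Mt2 were higher there. The distal plates did not follow this throughout. In batch 2 their marker sum (8405 CPM) was below that of the wound bed (14618 CPM), and their Mt1 and Mt2 levels were lower as well. Distal sums were also below control in both batches, with Mt2 above control in batch 1 only. The part of these markers in the levels of Mt1 and Mt2 was not tested.

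Mt4 also went with Stfa1 cell by cell. Among cells with a Stfa1 read, 23 of 26 in the distal region (88.5%), 43 of 47 in the wound bed (91.5%) and 5 of 5 in control had Mt4 reads. Among cells without one, Mt4 was seen in 25.5% of distal, 57.9% of wound bed and 20.3% of control cells. Ly6a, which encodes the surface protein used in the sort, went with Mt2 less closely, with a within-plate r of 0.32 against 0.60 for Mt4 with Stfa1. Mt2 was detected in 88.1% of distal, 95.3% of wound bed and 66.7% of control cells with a Ly6a read, and in 58.97%, 66.7% and 36.8% of those without. In the batch 1 distal plate these shares were close, at 87.5% and 81.25%, and r was 0.02. Deeper cells have more reads of any gene, and these shares were not matched for depth.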
